A study of Mus musculus with 16 samples.

Results

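Fatty acid oxidation was followed in mouse kidney through 35 named genes: regulators, acyl-CoA synthetases, carnitine acyltransferases, the mitochondrial and peroxisomal enzymes of beta-oxidation, and acyl-CoA thioesterases. Members were matched by gene symbol to array probe sets that carry exactly 1 symbol, and a gene with several such probe sets was read from the one brightest on average across all 16 arrays. That gave 32 measured members among 19938 genes tested. Acsl3 and Cpt1b lay only on probe sets with more than 1 symbol, and Acsl1 had no matching row, so these 3 were not analysed here. By the usual site of the protein, 18 measured members are mitochondrial, 7 are peroxisomal and 7 lie elsewhere or in both.

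The arrays came from halved kidneys of mice in which doxycycline deletes Vhl in tubule cells, a line that rests on Pax8-rtTA per the series' design text. All 4 groups carry that transgenic background, although the genotype field reads wild type where no doxycycline was given. Control mice (n = 3) were untreated, and VHL-KO mice (n = 3) were given subcutaneous doxycycline, 0.1 mg for every 10 g of weight, 4 days ahead of death. In the AKI group (n = 5), glycerol of 50% strength was put into a hind limb muscle under isoflurane at a dose of 0.05 ml for every 10 g, which breaks down muscle and injures the kidney. These mice had no water from 20 h ahead of the glycerol until 24 h later. The VHL-KO/AKI group (n = 5) had both the doxycycline and the glycerol with its water restriction. No group had doxycycline without an inducible Vhl deletion, and none had water withdrawal alone. The labels used here state neither age nor the interval between glycerol and death, and they say that both sexes were used without giving the sex of each mouse. The labels call the arrays of a group biological replicates.

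Fatty acids are the main fuel of the proximal tubule. Long-chain fatty acids are first joined to coenzyme A, passed into mitochondria as carnitine esters, and then shortened in repeated rounds of dehydrogenation, hydration, a second dehydrogenation and thiolysis, with electrons handed to the respiratory chain. Peroxisomes run a parallel pathway for very long, branched and dicarboxylic chains. The nuclear receptor PPAR-alpha (Ppara) and its co-activator PGC-1alpha (Ppargc1a) raise transcription of many of these enzymes. Vhl encodes the protein that marks hypoxia-inducible factors (HIF) for breakdown, and HIF is known to turn metabolism from oxidation of fuels towards glycolysis.

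Levels are log2 probe set values, so a difference of 1 is a doubling. Probe sets differ in brightness, and levels are therefore compared between groups and never between genes. The targeted gene Vhl lay between 6.35 and 6.70 in the 8 arrays given doxycycline and between 7.01 and 7.36 in the other 8. Injured and uninjured kidneys also differed in sex-linked signal. Xist ranged from 10.23 to 11.47 without injury (6 arrays) and from 4.16 to 5.08 with it (10 arrays), where a Y-linked mean (Kdm5d, Eif2s3y, Uty) ranged from 7.77 to 8.26. Control 3 held both signals (10.23 for Xist, 7.43 for the Y-linked genes). Injury and sex-linked signal therefore cannot be told apart here, whereas VHL-KO/AKI and AKI, at Y-linked means of 8.06 ± 0.22 and 8.13 ± 0.17 (SD, n = 5 each), were not split in this way. Within AKI, array 4 stood apart: its level of the injury marker Havcr1 was 9.30 against 12.23 to 13.13 in the other 4, and its proximal tubule marker mean was 12.03 against 10.62 to 11.23. In VHL-KO/AKI, array 3 was the highest of its group in 23 of 32 members, as AKI 4 was in AKI, with median deviations of 0.37 and 0.52 from the mean of the other 4 arrays of the group. Calls that change without either array are given both ways. Leaving out an array that is the highest of its group lowers that group's mean by construction. Calls gained without AKI 4 are therefore no separate support for a difference.

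Glycerol injury went with lower levels of many mitochondrial steps and of both regulators. In AKI against control, 11 of 32 members fell, 3 rose and 18 did not pass (limma, Benjamini-Hochberg adjusted p under 0.05 over all genes), against 14.9% of all genes that fell and 13.2% that rose (28.1% in either direction). The arrays of the groups did not overlap for 7 members lower and 3 higher in AKI, against 13.8% and 13.5% of all genes (27.3% either way). The median difference over the members was -0.31, beside 0.02 over all genes. Decr2, a peroxisomal reductase, Ppargc1a and Acaa2, the mitochondrial thiolase, had the largest falls, and Acot2 and Acsl4 the largest rises. The mitochondrial members gave 7 falls and 2 rises of 18, with a median of -0.35. The peroxisomal members gave 1 fall of 7, with a median of -0.25. Leaving out AKI 4 raised the falls to 15 of 32, beside 17.0% of all genes, with 3 rises beside 17.2% (34.2% either way). With the sex-linked level (Xist minus the Y-linked mean) as a covariate the members called went from 14 to 0, as did the calls among all 19938 genes (0%), and the median standard error over all genes rose from 0.101 to 0.433. In whole tissue, fewer cells of a type and less RNA per cell cannot be told apart.

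Deletion of Vhl in injured kidneys went with higher levels of members. In VHL-KO/AKI against AKI, 5 of 32 members rose, 0 fell and 27 did not pass, against 2.48% of all genes that rose and 1.40% that fell (3.88% either way). The 5 were Ppara, the mitochondrial trifunctional subunit Hadha, and the peroxisomal enzymes Decr2, Hsd17b4 and Eci2, which are 3 of the 7 peroxisomal members, whereas 1 of the 18 mitochondrial members passed. Whether the compartments differed was not tested. Every VHL-KO/AKI array lay above every AKI array for 5 members (Ppara, Hadha, Hsd17b4, Eci2 and Eci1) and below for 0, against 2.19% and 1.58% of all genes (3.78% either way). The median difference was 0.37 over all members, 0.56 over the peroxisomal and 0.35 over the mitochondrial ones, beside -0.01 over all genes. Without AKI 4 the count rose to 18 of 32, against 7.23% of all genes that rose and 4.72% that fell (12.0% either way), and included 5 of 7 peroxisomal and 10 of 18 mitochondrial members. Since AKI 4 was the highest AKI array in 23 of 32 members, part of this gain follows from leaving it out. With only the AKI and VHL-KO/AKI arrays in the fit, 1 member (Ppara) and 1.12% of all genes passed. Leaving out VHL-KO/AKI 1 or VHL-KO/AKI 3 left 2 members (Hsd17b4 and Decr2), beside 1.15% and 1.29% of all genes.

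**Figure D1:**
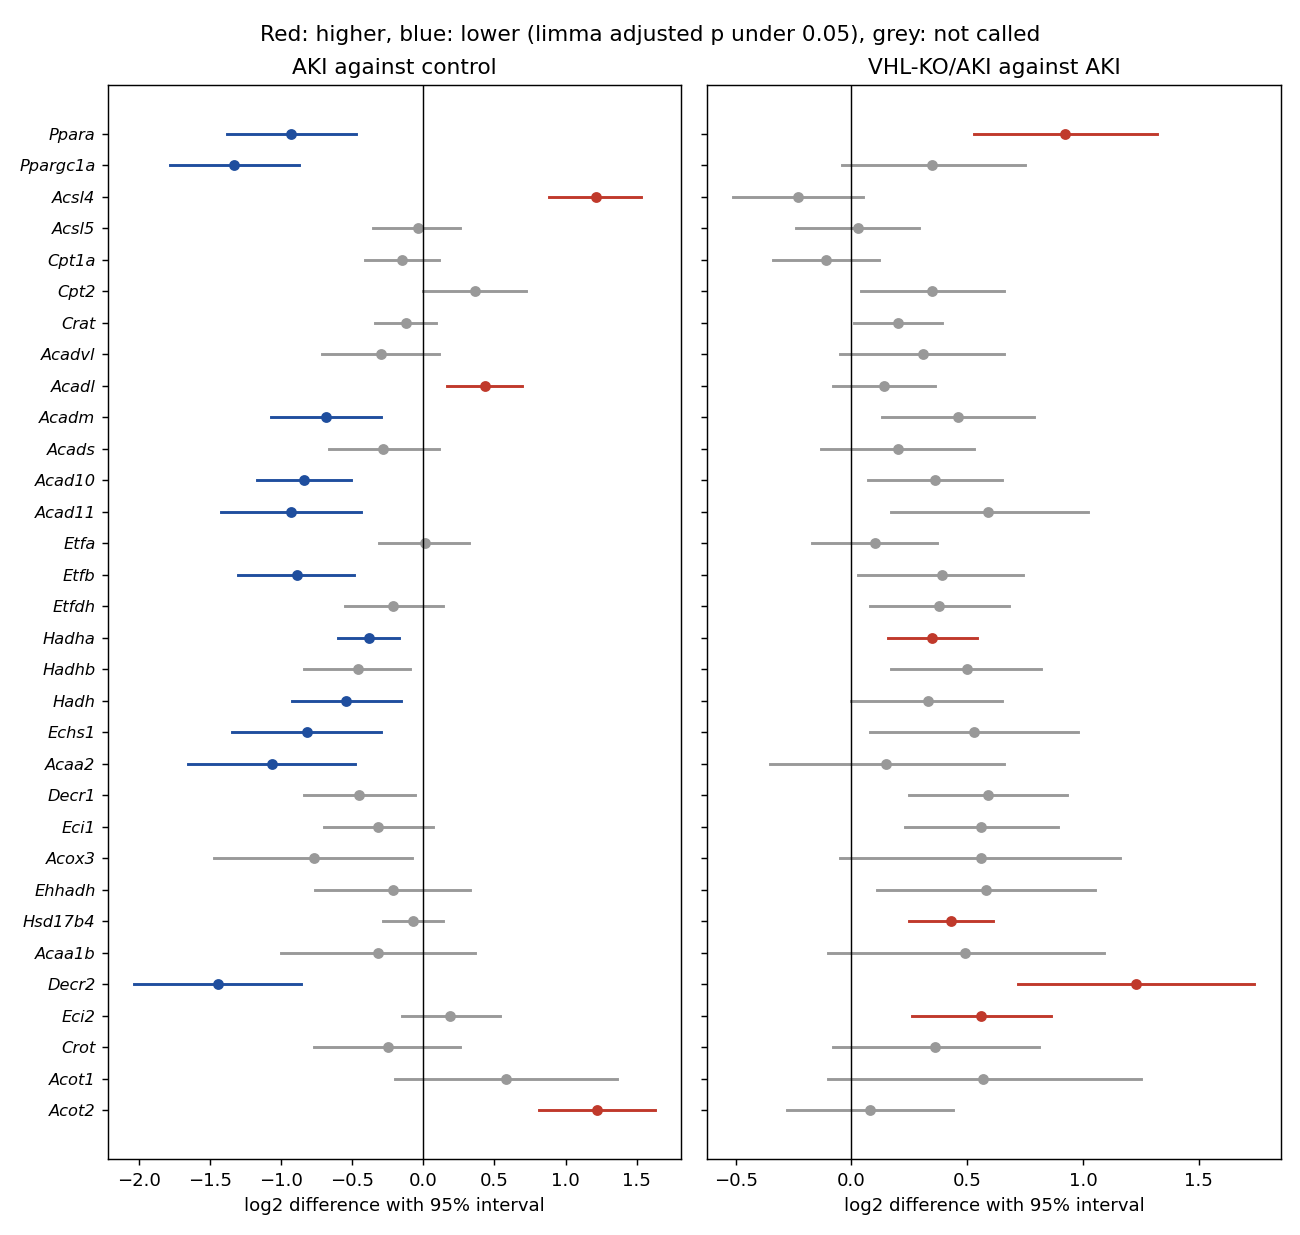
Log2 difference with its 95% interval for each of the 32 measured members, in AKI against control (left) and VHL-KO/AKI against AKI (right), with genes in order of role from regulators to thioesterases. Blue marks the 11 members that fell and red those that rose (3 on the left, 5 on the right) at a limma adjusted p under 0.05, and grey the others.

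Deletion in uninjured kidneys did not move a member past the threshold. In VHL-KO against control 0 of 32 members passed in limma, against 0.527% of all genes in either direction (0.476% higher and 0.0502% lower), and 3 had an unadjusted p under 0.05 (Acot2, Acadl and Hsd17b4, all higher), against 8.35% of all genes. The arrays of the groups did not overlap for 7 members, all higher in VHL-KO (Acadl, Acadm, Hadha, Eci1, Hsd17b4, Acot1 and Acot2), against 11.8% of all genes that separated in that direction, 5.33% in the other and 17.2% in either. The median difference was 0.13 over the members and 0.02 over all genes. VHL-KO 3 had a mean over the members of 10.45, against 10.09 and 10.11 in VHL-KO 1 and 2 and 10.10 to 10.16 in controls. Acot1 stood at 7.61 in VHL-KO 3 and at 6.39 and 6.47 in VHL-KO 1 and 2. The 95% intervals of the regulators ran from -0.33 to 0.69 for Ppara and from -0.51 to 0.51 for Ppargc1a. With 3 arrays a group, changes within these intervals were not excluded.

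In the deleted kidneys the share of members called with injury, 15.6%, was near that of all genes. In VHL-KO/AKI against VHL-KO, 3 of 32 members rose (Acsl4, Cpt2 and Eci2) and 2 fell (Ppargc1a and Acaa2), against 4.66% and 8.91% of all genes (13.6% either way), and the median was -0.03. As with the other injury comparison, sex-linked signal separated the groups, and with it as a covariate 0 members and 0 of all genes passed. The count went to 2 without VHL-KO 1, VHL-KO 2, VHL-KO/AKI 4 or VHL-KO/AKI 5, with Ppargc1a and Acsl4 left. The interaction, the difference of the deletion effect between injured and uninjured kidneys, was called for 0 of 32 members in limma (0.0100% of all genes), and for 6 at an unadjusted p under 0.05, against 12.0% of all genes (Decr2, Ppara, Acox3, Acad11 and Acad10 above 0 and Acot2 below 0). Without AKI 4 it was called above 0 for 5 members, namely Decr2, Acox3, Echs1, Acad11 and Hadh, against 1.47% of all genes in that direction and 1.64% in the other (3.11% either way). With control 3 also left out, a setting chosen after seeing the data, it was again called for 0.

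**Figure D2:**
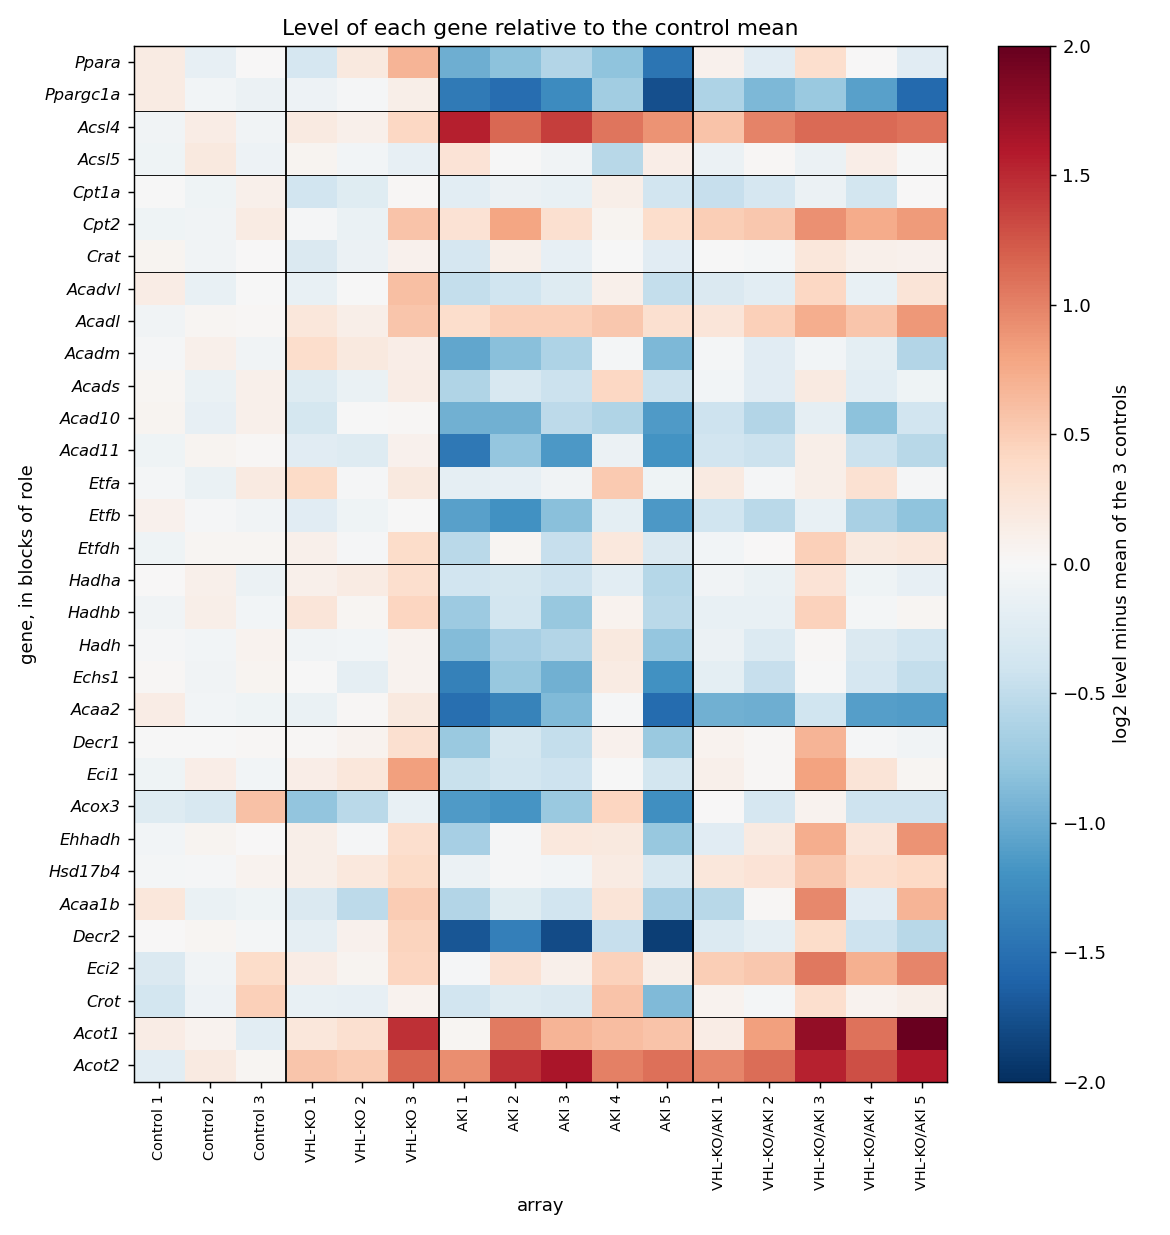
Level of each measured member in each of the 16 arrays, as the log2 value minus the mean of the 3 controls, with arrays as columns in group order and genes as rows in blocks of role. Decr2 and Ppargc1a are blue in all 5 AKI columns, palest in AKI 4, and Acot2 and Acsl4 are red in all 10 injured arrays.

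Among the regulators, Ppara encodes the receptor that binds fatty acids and switches on their oxidation genes (chromosome 15, probe set 10425987). Its level was 10.08, 9.75 and 9.93 in controls 1 to 3 and 9.59, 10.11 and 10.60 in VHL-KO 1 to 3. AKI 1 to 5 held 8.94, 9.10, 9.34, 9.12 and 8.46. In VHL-KO/AKI 1 to 5 it stood at 10.01, 9.70, 10.26, 9.92 and 9.70. All 5 AKI arrays were lower than every other array, and the VHL-KO/AKI arrays spanned the control values. Ppara fell by 0.93 on the log2 scale in AKI against control (SE 0.214, limma adjusted p = 0.00446) and rose by 0.92 in VHL-KO/AKI against AKI (SE 0.185, adjusted p = 0.0159). These comparisons share the AKI arrays. The rise ended without VHL-KO/AKI 1 or VHL-KO/AKI 3 (adjusted p up to 0.0506). The interaction for Ppara was 0.74 (95% interval 0.10 to 1.39, adjusted p = 0.352).

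Ppargc1a, which encodes a co-activator of mitochondrial gene expression (chromosome 5, probe set 10529979), lay at 11.13, 10.92 and 10.86 in the controls and 10.87, 10.95 and 11.09 in VHL-KO. The AKI arrays held 9.56, 9.45, 9.71, 10.27 and 9.21, and the VHL-KO/AKI arrays 10.36, 10.07, 10.22, 9.89 and 9.42. Every injured array was below every uninjured array, with AKI 4 the highest of its group. The fall was 1.33 in AKI against control (SE 0.214, limma adjusted p = 0.000385), and Ppargc1a fell by 0.98 in VHL-KO/AKI against VHL-KO (adjusted p = 0.00719). VHL-KO/AKI and AKI overlapped, with a difference of 0.35 (adjusted p = 0.328) that reached 0.51 without AKI 4 (adjusted p = 0.0456). A dimmer probe set of the gene gave a fall of 1.16 in AKI (log2 difference -1.16, adjusted p = 0.000172).

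**Figure D3:**
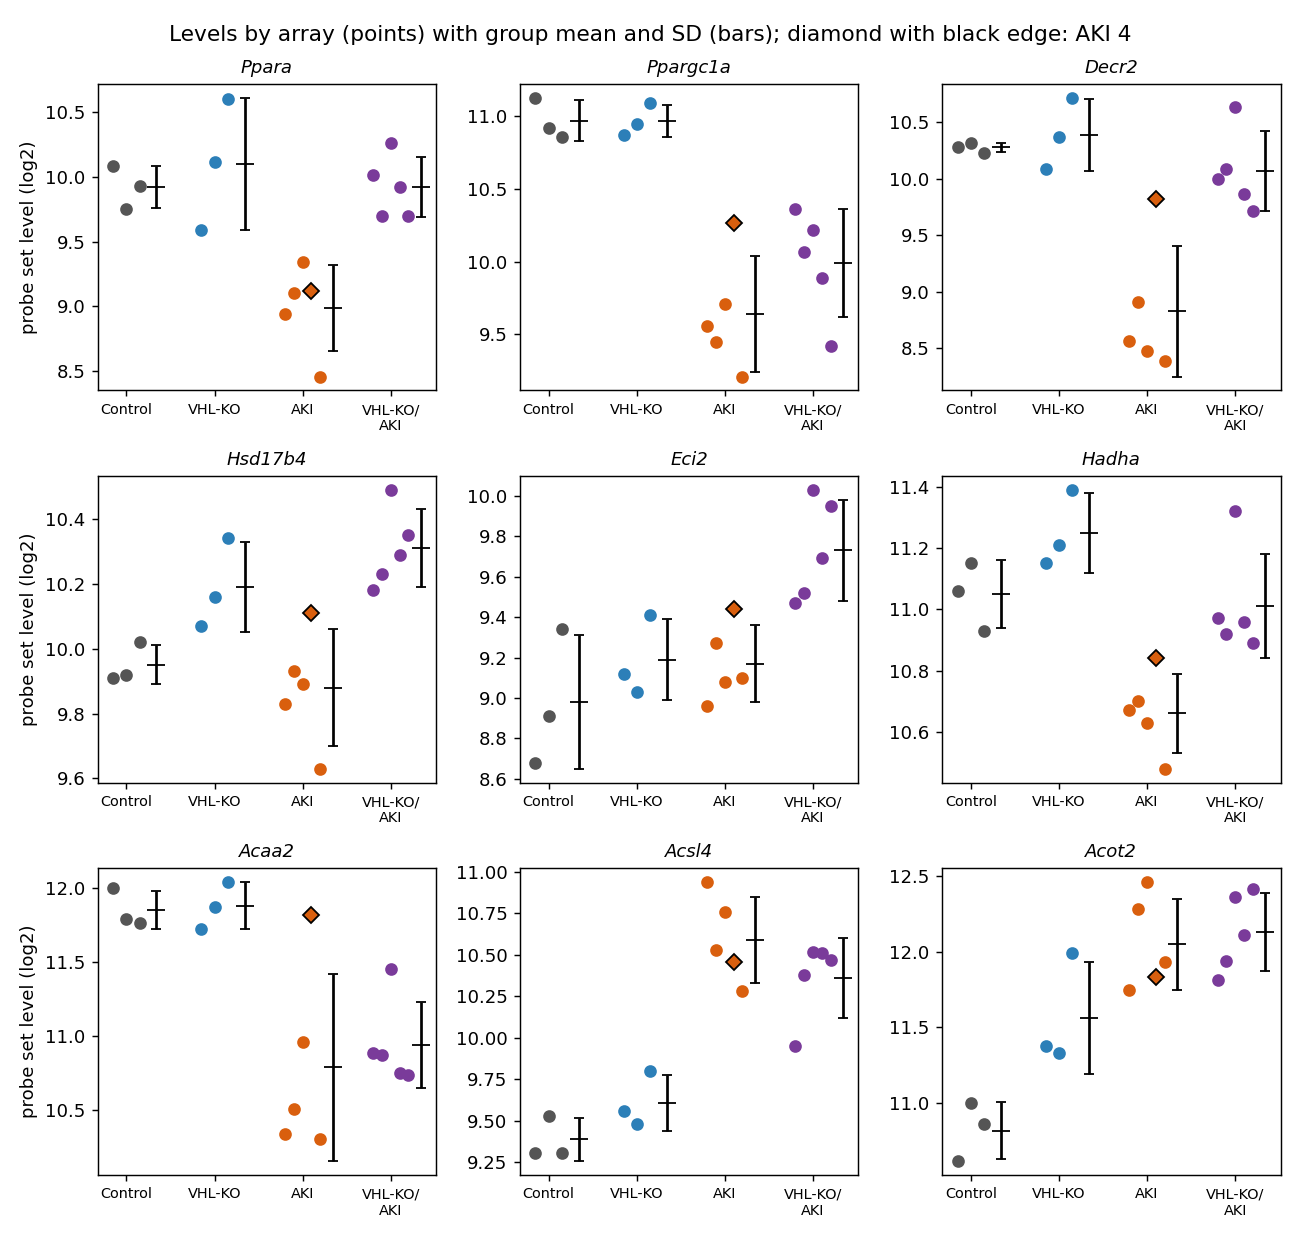
Log2 probe set level of 9 members by group, with 1 point per array and the group mean and SD as a bar to the right of the points (n = 3 for Control and VHL-KO, n = 5 for AKI and VHL-KO/AKI). The diamond is AKI 4, which lies at 9.82 for Decr2 and 11.82 for Acaa2, above the other AKI arrays, but at 9.12 for Ppara, among them.

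Promoters are shown for 4 of the 5 members that rose in VHL-KO/AKI against AKI, picked by that call. The promoter of the fifth, Hsd17b4, is not printed. In AKI against control Ppara, Decr2 and Hadha fell, whereas Eci2 differed by 0.19 (limma adjusted p = 0.422). The windows run from 250 bases before to 50 bases after the gene start (RefSeq, GRCm38.p6), 5′ to 3′ on the gene's strand. Capitals mark GCGTG or ACGTG, core letters of HIF binding sites, or AGGTCA, the repeat unit of PPAR response elements, on either strand. The windows lie at chr15:85735526-85735825 (plus strand) for Ppara, chr17:26090115-26090414 (minus) for Decr2, chr13:34994095-34994394 (minus) for Eci2 and chr5:30154931-30155230 (minus) for Hadha.
Ppara: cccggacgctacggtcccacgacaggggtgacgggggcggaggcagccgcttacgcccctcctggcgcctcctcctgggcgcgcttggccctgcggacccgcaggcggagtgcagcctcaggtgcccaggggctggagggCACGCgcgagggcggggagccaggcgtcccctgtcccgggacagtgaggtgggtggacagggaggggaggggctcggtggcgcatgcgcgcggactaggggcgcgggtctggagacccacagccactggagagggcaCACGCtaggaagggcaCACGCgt
Decr2: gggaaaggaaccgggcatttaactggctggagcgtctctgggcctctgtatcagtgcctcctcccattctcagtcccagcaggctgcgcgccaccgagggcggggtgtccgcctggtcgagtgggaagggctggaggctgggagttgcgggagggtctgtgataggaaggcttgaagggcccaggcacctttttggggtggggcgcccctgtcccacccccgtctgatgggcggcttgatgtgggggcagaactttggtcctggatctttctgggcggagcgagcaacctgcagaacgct
Eci2: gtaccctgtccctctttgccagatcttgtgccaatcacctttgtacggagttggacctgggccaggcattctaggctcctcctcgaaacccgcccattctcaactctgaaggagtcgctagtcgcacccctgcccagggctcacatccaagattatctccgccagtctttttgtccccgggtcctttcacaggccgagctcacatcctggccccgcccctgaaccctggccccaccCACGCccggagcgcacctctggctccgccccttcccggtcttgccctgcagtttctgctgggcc
Hadha: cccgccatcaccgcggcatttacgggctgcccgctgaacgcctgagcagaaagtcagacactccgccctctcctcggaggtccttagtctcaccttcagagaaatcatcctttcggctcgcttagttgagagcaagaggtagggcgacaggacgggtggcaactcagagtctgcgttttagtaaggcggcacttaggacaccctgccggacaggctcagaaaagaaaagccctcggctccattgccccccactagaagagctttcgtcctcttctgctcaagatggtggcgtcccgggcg
The Ppara window held 3 matches to GCGTG, the Eci2 window 1 and the other pair 0, with 0 matches to ACGTG or AGGTCA in all 4. A promoter window was found for 28 of the 32 measured members. Of these, 16 (57.1%) held GCGTG, against 32.4% of all 32851 windows, 2 (7.14%) held ACGTG, against 19.6%, and 4 (14.3%) held AGGTCA, against 16.3%. The full response element searched, a direct repeat of AGGTCA with 1 base between the copies, which PPAR-alpha binds with its partner RXR, was in 0 of 28 and in 0.0396% of all windows. Such letters are a description of these short windows and not of binding. The windows of Hadha and Hadhb, which run in opposite directions on chromosome 5, shared 228 bases (30155003 to 30155230).

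For the activation of fatty acids, Acsl4 encodes a synthetase that prefers arachidonate and lies on the X chromosome (probe set 10607089). Control levels were 9.31, 9.53 and 9.31, and VHL-KO levels were 9.56, 9.48 and 9.80. They were 10.94, 10.53, 10.76, 10.46 and 10.28 in AKI 1 to 5, and 9.95, 10.38, 10.52, 10.51 and 10.47 in VHL-KO/AKI 1 to 5. Every injured array lay above every uninjured one. Acsl4 rose by 1.21 in AKI against control (SE 0.151, limma adjusted p = 6.7e-05) and by 0.75 in VHL-KO/AKI against VHL-KO (adjusted p = 0.00455). Acsl5, a synthetase of mitochondria and the endoplasmic reticulum, had group means between 9.54 and 9.59.

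In the carnitine shuttle 1 of 3 members, Cpt2, passed in 1 comparison, VHL-KO/AKI against VHL-KO, in which 13.6% of all genes passed. Cpt1a, the outer membrane transferase that sets the rate of entry of long chains, differed by -0.15 in AKI against control (95% interval -0.41 to 0.11) and by -0.11 in VHL-KO/AKI against AKI (-0.34 to 0.12). Cpt2, which frees the acyl-CoA inside the mitochondrion, rose by 0.57 in VHL-KO/AKI against VHL-KO (SE 0.168, adjusted p = 0.0351), with VHL-KO 3 at 10.32 inside the VHL-KO/AKI range. That call ended without VHL-KO 1 or 2 or without VHL-KO/AKI 3, 4 or 5 (adjusted p up to 0.164). Its difference in AKI against control was 0.36 (adjusted p = 0.128). Crat, which handles short chains, had group means between 10.17 and 10.36 and passed in none of the 5 comparisons.

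The acyl-CoA dehydrogenases take the first electrons from the chain and pass them through the flavoprotein ETF (Etfa and Etfb) and its oxidoreductase (Etfdh). In AKI against control 4 of these 9 members fell and 1 rose, against 14.9% and 13.2% of all genes (28.1% either way). In VHL-KO/AKI against AKI 0 of 9 passed, against 3.88% of all genes. Without AKI 4, 5 of 9 rose in the latter, namely Acad11, Acadm (0.62), Etfb (0.56), Etfdh (0.48) and Acads (0.37), against 7.23% of all genes. Acadm and Etfb also passed, as falls, in VHL-KO/AKI against VHL-KO without AKI 4, against 19.6% of all genes called either way. Acad11, which acts on long and hydroxylated chains (chromosome 9, probe set 10588357), lay at 10.97, 11.11 and 11.07 in the controls and at 10.82, 10.79 and 11.14 in VHL-KO. AKI arrays held 9.62, 10.28, 9.90, 10.94 and 9.86, and VHL-KO/AKI arrays 10.66, 10.62, 11.17, 10.62 and 10.49. AKI 4 came close to the controls, and the other 4 AKI arrays were below all VHL-KO/AKI arrays. Acad11 fell by 0.93 in AKI against control (SE 0.231, adjusted p = 0.00703), and differed by 0.59 in VHL-KO/AKI against AKI (adjusted p = 0.118), or 0.80 without AKI 4 (adjusted p = 0.00311).

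Etfb fell by 0.89 in AKI (SE 0.191, adjusted p = 0.00271), whereas the value for its partner subunit Etfa was 0.01 (adjusted p = 0.983) and that for Etfdh -0.21 (adjusted p = 0.379). Whether the ETF subunits differed in their change was not tested. Acad10 fell by 0.84 (adjusted p = 0.00109), and Acadm, the medium-chain dehydrogenase, fell by 0.68 (adjusted p = 0.0102), from 12.05 ± 0.09 (SD, n = 3) to 11.37 ± 0.39 (n = 5). Acadl, the long-chain dehydrogenase, rose by 0.43 (adjusted p = 0.0151), from 10.35 ± 0.06 to 10.78 ± 0.09, but not without control 1 (adjusted p = 0.0654). Acadvl, for very long chains, and Acads, for short ones, did not pass (-0.30 and -0.28, adjusted p = 0.278 and 0.286). Without AKI 4, Acads fell by 0.45 (adjusted p = 0.00584) and Acadvl did not pass.

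Among the enzymes from hydration to thiolysis, 4 of 5 fell in AKI against control, against 14.9% of all genes that fell (28.1% called either way). The arrays of the groups did not overlap for 1 of the 5 (Hadha, lower), against 13.8% of all genes in that direction. Acaa2 encodes the thiolase that splits off acetyl-CoA in the mitochondrion (chromosome 18, probe set 10456699). The controls stood at 12.00, 11.79 and 11.76 and VHL-KO at 11.72, 11.87 and 12.04. In AKI 1 to 5 the values were 10.34, 10.51, 10.96, 11.82 and 10.31, and in VHL-KO/AKI 1 to 5 they were 10.89, 10.87, 11.45, 10.75 and 10.74. Only AKI 4 among the injured arrays reached the uninjured range. Acaa2 fell by 1.06 in AKI against control (SE 0.273, adjusted p = 0.00858), and by 1.32 without AKI 4. It fell by 0.94 in VHL-KO/AKI against VHL-KO (adjusted p = 0.0337), a call that ended without any 1 of the VHL-KO arrays or without VHL-KO/AKI 1, 2, 4 or 5 (adjusted p up to 0.127). VHL-KO/AKI and AKI differed by 0.15 (95% interval -0.35 to 0.66), or 0.41 without AKI 4 (adjusted p = 0.0991).

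Echs1, the short-chain hydratase, fell by 0.82 (adjusted p = 0.0195) and Hadh, the hydroxyacyl-CoA dehydrogenase, by 0.54 (adjusted p = 0.0326). Neither passed with only AKI and control arrays in the fit. Echs1 also lost its call without control 1 or control 3, and Hadh without any 1 of the controls or without AKI 1, 2, 3 or 5 (adjusted p up to 0.101). The trifunctional protein joins Hadha and Hadhb. Hadha fell by 0.38 in AKI (SE 0.101, adjusted p = 0.0105), from 11.05 ± 0.11 to 10.66 ± 0.13, and rose by 0.35 in VHL-KO/AKI against AKI (SE 0.0878, adjusted p = 0.0414), to 11.01 ± 0.17 (n = 5). Without control 2 the fall in AKI was 0.33 (adjusted p = 0.0576). The rise kept its call in 11 of 28 alternatives, with adjusted p up to 0.104. Hadha stands outside the rule for naming genes and was picked out after its values were seen. Hadhb differed by -0.46 (adjusted p = 0.0631) and 0.50 (adjusted p = 0.0845) in these comparisons, and a dimmer probe set of Hadhb gave -0.47 and 0.50. Without AKI 4 both passed, at -0.60 (adjusted p = 0.00396) and 0.63 (adjusted p = 0.00552). In VHL-KO/AKI against AKI, Echs1 and Hadh also passed without AKI 4, at 0.77 (adjusted p = 0.0013) and 0.51 (adjusted p = 0.00174). Without VHL-KO/AKI 3, Hadhb and Decr1 passed in AKI against control, and Hadha in VHL-KO/AKI against VHL-KO.

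The mitochondrial auxiliary enzymes Decr1 and Eci1 prepare unsaturated chains by reducing or moving double bonds. Neither passed in any comparison. In VHL-KO/AKI against AKI, Decr1 differed by 0.59 (adjusted p = 0.0546) and Eci1 by 0.56 (adjusted p = 0.0574), and every VHL-KO/AKI array was above every AKI array for Eci1. Without AKI 4 both rose, by 0.72 (adjusted p = 0.00443) and 0.64 (adjusted p = 0.0164), and Decr1 fell by 0.58 in AKI against control (adjusted p = 0.00801).

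In the peroxisome, Decr2 encodes the 2,4-dienoyl-CoA reductase that serves polyunsaturated chains (chromosome 17, probe set 10449225). The controls lay at 10.28, 10.32 and 10.23 and VHL-KO at 10.09, 10.37 and 10.72. AKI 1 to 5 held 8.56, 8.91, 8.48, 9.82 and 8.39, and VHL-KO/AKI 1 to 5 held 10.00, 10.09, 10.64, 9.87 and 9.72. All AKI arrays were below all uninjured arrays. AKI 4 alone overlapped with VHL-KO/AKI, through VHL-KO/AKI 5. Decr2 fell by 1.44 in AKI against control (SE 0.275, adjusted p = 0.00129), a 2.72-fold lower level, and rose by 1.23 in VHL-KO/AKI against AKI (SE 0.238, adjusted p = 0.0133), a 2.35-fold higher level. Without AKI 4 the rise was 1.48 (adjusted p = 0.000183). With only the AKI and VHL-KO/AKI arrays its adjusted p was 0.0613.

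Hsd17b4, the multifunctional enzyme for branched and very long chains (chromosome 18, probe set 10455656), lay at 9.91, 9.92 and 10.02 in the controls and at 10.07, 10.16 and 10.34 in VHL-KO. The AKI values were 9.83, 9.93, 9.89, 10.11 and 9.63, and the VHL-KO/AKI values 10.18, 10.23, 10.49, 10.29 and 10.35. Arrays given doxycycline lay above those without it in both uninjured and injured kidneys. Hsd17b4 rose by 0.43 in VHL-KO/AKI against AKI (SE 0.0854, adjusted p = 0.0154). The difference in VHL-KO against control was 0.24 (95% interval 0.01 to 0.48, adjusted p = 0.584), and that in AKI against control -0.07 (adjusted p = 0.639).

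Eci2, an isomerase for unsaturated chains (chromosome 13, probe set 10408656), lay at 8.68, 8.91 and 9.34 in the controls and 9.12, 9.03 and 9.41 in VHL-KO. It reached 8.96, 9.27, 9.08, 9.44 and 9.10 in AKI and 9.47, 9.52, 10.03, 9.69 and 9.95 in VHL-KO/AKI. The VHL-KO/AKI arrays lay above all others, and control 3 was the highest control. Eci2 rose by 0.56 in VHL-KO/AKI against AKI (SE 0.141, adjusted p = 0.0408) and by 0.54 in VHL-KO/AKI against VHL-KO (SE 0.163, adjusted p = 0.0386). The former call held in 14 of 28 alternatives, with adjusted p up to 0.118. The latter ended without VHL-KO 1 or 2 or without VHL-KO/AKI 3, 4 or 5 (adjusted p up to 0.147).

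Of the other 4 peroxisomal members, Ehhadh, the bifunctional enzyme and a known PPAR-alpha target, differed by 0.58 in VHL-KO/AKI against AKI (adjusted p = 0.165), Acox3, an oxidase for branched chains, by 0.56 (adjusted p = 0.313), the thiolase Acaa1b by 0.49 (adjusted p = 0.369) and Crot, the octanoyl transferase, by 0.36 (adjusted p = 0.384). Without AKI 4, Acox3 rose by 0.86 (adjusted p = 0.0102) and Crot by 0.57 (adjusted p = 0.0302), and Acox3 fell by 1.07 in AKI against control (adjusted p = 0.00118). Control 3, the control with Y-linked signal, was the highest control for both, at 9.96 against 9.05 and 9.11 for Acox3 and at 11.05 against 10.20 and 10.47 for Crot. Acaa1b has a close relative, and how far its probe set tells the pair apart was not tested.

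**Figure D4:**
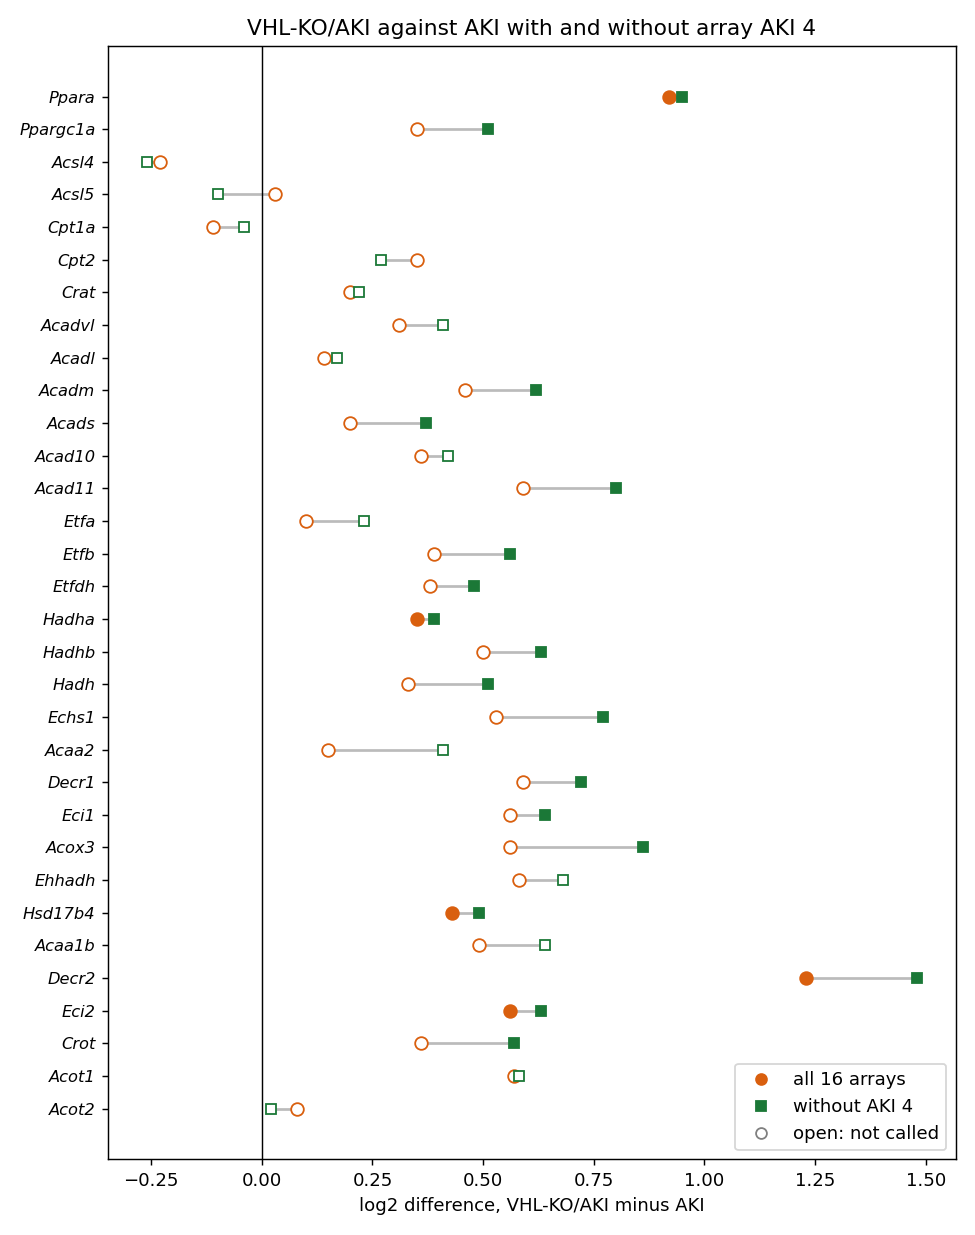
Log2 difference of VHL-KO/AKI minus AKI for the 32 measured members with all 16 arrays (orange circles) and without AKI 4 (green squares), filled where limma called the gene and open where it did not. Filled symbols go from 5 to 18, and the difference for Decr2 goes from 1.23 to 1.48. AKI 4 was the highest AKI array in 23 of the 32 members.

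Thioesterases release free fatty acids from acyl-CoA, Acot1 in the cytosol and Acot2 in mitochondria. Acot2 (chromosome 12, probe set 10397145) lay at 10.62, 11.00 and 10.86 in the controls and at 11.38, 11.33 and 11.99 in VHL-KO. In AKI it lay at 11.75, 12.28, 12.46, 11.83 and 11.93, and in VHL-KO/AKI at 11.81, 11.94, 12.36, 12.11 and 12.41. The controls were below all other arrays. Acot2 rose by 1.22 in AKI against control (SE 0.193, adjusted p = 0.000332), whereas the difference of 0.74 in VHL-KO against control did not pass (95% interval 0.28 to 1.20, adjusted p = 0.223). Acot1 on the same chromosome varied within groups, from 6.31 to 8.13 in VHL-KO/AKI, and passed in no comparison. Acot1 and Acot2 are close in sequence, and cross-hybridisation between them was not tested.

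Other genes of lipid use came from 8 further lists, in which 125 of 135 genes were measured. In AKI against control 14.9% of all genes fell and 13.2% rose (28.1% either way), and the list counts stand beside these shares. In AKI against control, further mitochondrial acyl-CoA enzymes, mostly of branched-chain amino acid breakdown, fell in 14 of 17 cases and rose in 0, with a median of -0.81. Mccc2, a subunit of methylcrotonyl-CoA carboxylase, fell by 1.62 and Acad12 by 1.27, and Gcdh and Acadsb by 1.07 and 0.97. Further peroxisomal enzymes fell in 10 of 17 cases and rose in 1. Hao2, a hydroxyacid oxidase, fell by 3.77, Acot3 by 2.51, Hacl1, which shortens phytanic acid products, by 2.17, and Pecr by 1.69. Peroxins, which build the organelle, fell in 3 of 13 cases (Pex10 by 0.79, Pex19 by 0.68 and Pex6 by 0.53). Their share called, 23.1%, was near the 28.1% of all genes.

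Uptake, binding and carnitine supply gave 12 falls and 4 rises of 22 in AKI, against 14.9% and 13.2% of all genes (28.1% either way). Acsm3, which also stood in the list of male-biased kidney genes, rose by 3.30, with controls from 5.35 to 11.57 and AKI arrays from 10.36 to 12.07. Acsm5, Acsm1 and Acss1 fell by 2.59, 2.35 and 2.04. Of 4 ketone body genes 3 fell (Bdh1 by 1.68, Bdh2 by 1.19 and Oxct1 by 0.95) and the monocarboxylate carrier Slc16a1 rose by 1.74. Nuclear receptors and co-regulators fell in 8 of 20 cases and rose in 2, with Esrrb, Hnf4a, Sirt3 and Esrrg down by 1.54, 1.28, 1.23 and 1.22. Malonyl-CoA and fatty acid synthesis genes fell in 9 of 16 cases, with Fads2, Fads1, Scd2 and Elovl5 down by 1.70, 1.16, 0.94 and 0.89. The other known PPAR-alpha targets went the other way in number, with 8 of 16 higher and 1 lower. The 1 lower was Cyp4a14, by 2.38 (means of 11.86 in controls and 9.48 in AKI), also a gene of the female-biased list. A difference below 0 was found for 4 of 16, namely Cyp4a14, Cyp4a10, Cyp4a31 and Vnn1. Pdk4, which restrains pyruvate oxidation, rose by 3.37, the lipid droplet gene Cidec by 3.09, and Cyp4a12a and Cyp4a12b by 2.98 and 2.93. Cyp4a12a was also on the male-biased list, and its highest control reached 12.44 against 12.16 to 12.89 in AKI, while the highest control of Cyp4a12b reached 12.30 against 12.32 to 12.89.

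In VHL-KO/AKI against AKI, 2.48% of all genes were higher and 1.40% lower (3.88% either way). Higher were 2 of 17 further peroxisomal genes, 3 of 13 peroxins, 2 of 17 mitochondrial acyl-CoA genes and 1 of 22 uptake genes (4.55%). The counts were 0 of 4 for ketone bodies, 0 of 20 for receptors, 2 of 16 for PPAR-alpha targets and 1 of 16 for malonyl-CoA and synthesis. Elovl6 of the last list was the only gene lower. For Mlycd of that list, every VHL-KO/AKI array (7.05 to 7.43) lay above every AKI array (6.38 to 6.9). Chosen after their values were seen, the higher peroxisomal and PPAR-alpha genes were Hacl1 (1.17, adjusted p = 0.0173), Scp2 (0.65, adjusted p = 0.0318), Pex11a (0.96, adjusted p = 0.0294), Pex10 (0.46, adjusted p = 0.0123), Pex3 (0.45, adjusted p = 0.0393), Cyp4a14 (2.12, adjusted p = 0.0254) and Vnn1 (1.03, adjusted p = 0.0481). Pex11a drives the division of peroxisomes, and Cyp4a14 hydroxylates the end of fatty acids and also stood in the list of female-biased kidney genes. In VHL-KO against control none of the 8 lists had a called gene.

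Markers of nephron segments and other cells moved beside these results, and their part in them was not tested. Of all genes 14.9% fell and 13.2% rose in AKI against control (28.1% either way). In VHL-KO/AKI against AKI 2.48% rose and 1.40% fell (3.88% either way). Of 13 proximal tubule markers 9 fell in AKI against control, with a list mean of 11.78 to 12.36 in controls, 11.39 to 11.52 in VHL-KO, 10.62 to 12.03 in AKI and 10.84 to 11.55 in VHL-KO/AKI. Differences in AKI against control ran from -2.28 to 2.66 over the list. Kap and Slc7a13 of this list also stood in the list of male-biased kidney genes, and control 3 held the highest list mean, 12.36. Between the injured groups 0 of 13 passed. Of 6 thick ascending limb markers 5 fell in AKI, and 2 were higher in VHL-KO/AKI than in AKI (Kcnj1 by 1.28 and Cldn10 by 1.30), with list means of 9.24 to 11.12 in AKI and 9.86 to 11.18 in VHL-KO/AKI. Of 10 collecting duct markers 8 fell in AKI, and 2 were higher in VHL-KO/AKI than in AKI (Scnn1g by 0.82 and Scnn1b by 0.40). Of 5 distal convoluted tubule markers 4 fell in AKI, and 0 passed between the injured groups. Injured tubule markers rose in 7 of 8 cases in AKI, and Krt8 and Krt18 were lower in VHL-KO/AKI than in AKI (-0.51 and -0.90). Fat markers rose in 4 of 6 cases in AKI, with list means of 5.50 to 6.11 in controls and 6.46 to 8.12 in AKI. Of 9 muscle markers 1 rose (Acta1 by 0.55), with list means of 4.88 to 4.94 and 4.97 to 5.10. Of 7 neutrophil markers 6 rose in AKI and 2 were lower in VHL-KO/AKI than in AKI. Male-biased kidney genes rose in 4 of 9 cases in AKI, with means of 7.81 to 12.01 in controls, where control 3 was the highest, and 11.14 to 12.21 in AKI. Between the injured groups 0 of 9 passed. Of the female-biased genes 2 of 2 fell in AKI. Of 8 macrophage markers 2 rose and 2 fell in AKI, and of 8 endothelium markers 1 rose and 3 fell. In VHL-KO against control 0 of 8 endothelium markers passed. The arrays of all 8 lay higher in VHL-KO, with a median difference of 0.52, against 11.8% of all genes. Of 13 proximal tubule markers 0 passed there, and 7 separated lower in VHL-KO, against 5.33% of all genes.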

How the data were processed

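RNA from 16 mouse kidney samples was measured on single-colour Affymetrix arrays. The authors deposited log2 probe set values, which per the submitters' processing notes were made with Partek 6.4 and RMA. Array medians lay between 5.92 and 6.03, and no scan dates or batches were given in the sources used here. Of 35556 probe sets, the 21789 with exactly 1 gene symbol were used, those with several (1621) or none (12146) were left out, and each of 19938 genes was read from its brightest probe set. All groups were fitted together with limma 3.58.1 in R 4.3.3 (lmFit and eBayes, 1 mean per group, 12 residual and 2.83 prior degrees of freedom). Tests were 2-sided, and every adjusted p is a limma p with Benjamini-Hochberg adjustment over all genes, with a threshold of 0.05. The script was first tested on simulated data. P-values measure the spread between the labelled biological replicates, and the number of arrays limits the precision.

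The members and lists were chosen with earlier results of these data known. Values in every array are given for both regulators, for the called member with the largest change of each role in AKI against control, and for up to 4 members called in each deletion comparison; each further list names up to 4 called genes. Groups share replicate numbers, and the labels used here do not state that the numbers pair arrays. Deviations of same-numbered arrays correlated over 0.1 in 3 of 20 pairs (range -0.38 to 0.20). With so few arrays a group this cannot settle the question, and the main fit treated the arrays as unpaired. Alternatives covered the probe set rule, a filter on dim genes, scaling, the variance model, array weights, the arrays in the fit, the replicate block, sex-linked signal and leaving out each array.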

Additional observations from a re-analysis of the deposited data

Results flagged for a closer look

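In each injured group, the highest or lowest array was set against the others by the gap to its nearest neighbour as a share of the group's range. This was done for 32 members in both groups of 5, and 11 of the 64 cases passed Dixon's 95% value, where chance gives about 1 in 20. AKI 4 was the highest AKI array in 5 of these: Acads at 10.13, Etfa at 10.48, Hadh at 12.74, Eci1 at 8.88 and Acox3 at 9.81. VHL-KO/AKI 3 was the highest of its group in Acad11 at 11.17, Hadha at 11.32, Acaa2 at 11.45, Decr1 at 10.91 and Eci1 at 9.69. VHL-KO/AKI 1 was the lowest of its group in Acsl4, at 9.95. Members of 1 array share its RNA, so these cases are not independent.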

How the results depend on the processing

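Of the settings tried for the called genes, 586 kept the direction and the call, 83 lost the call and 3 reversed. The reversals came when sex-linked level entered the fit: Hadha in AKI against control (0.23), and Acaa2 (0.31) and Eci2 (-0.47) in VHL-KO/AKI against VHL-KO. The members called then went to 0 in both comparisons, as did the calls over all genes. The median standard error over all genes rose from 0.101 to 0.509 in VHL-KO/AKI against VHL-KO. In VHL-KO/AKI against AKI the count of 5 went to 3 with cyclic loess (3.88% of all genes called), 16 with array weights (14.4%), 1 with the compared groups alone (1.12%) and 17 without AKI 4 and control 3 together (11.0%), a setting chosen after seeing the data. The interaction gave 3 members with array weights (4.44%). The cause of these shifts was not tested. Leaving out 1 array at a time gave 0 to 0 members in VHL-KO against control, 11 to 18 in AKI against control, 2 to 18 in VHL-KO/AKI against AKI, 2 to 7 in VHL-KO/AKI against VHL-KO and 0 to 5 for the interaction. With the replicate block the counts were 0, 14, 4, 5 and 0 in the same order; Hadha lost its call in VHL-KO/AKI against AKI, and Cpt2 lost and Acot2 gained one in VHL-KO/AKI against VHL-KO. The interaction could not be fitted with the compared groups alone, since it uses all 4 groups.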
